A study of Bos taurus with 38 samples.

Results

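Of 38 newborn calves whose Longissimus dorsi (LD) muscle was sequenced, 24 were compared by their level of CD74 mRNA. All 38 were ranked by CD74 (ENSBTAG00000015228) in CPM (counts scaled to a common library size, here with library sizes adjusted by TMM, a factor that aligns the bulk of the genes between libraries). The 12 highest form the high class and the 12 lowest the low class, and the other 14 are called the middle calves. The ranking uses a measured value, so CD74 itself is described without a test and was left out of all tests. A difference between the classes is an association with CD74 in these calves and not the effect of a treatment.

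The calves were born to Angus or Angus-cross cows. Control dams (CTR, n = 10 calves) received no boluses, and the other dams received Se-yeast boluses of 105 mg Se per week for 13 weeks in early (TR1, n = 9), mid (TR2, n = 10) or late (TR3, n = 9) gestation, a trimester each. All dams, CTR included, had access to a mineral supplement with 120 mg/kg Se from Na selenite. The biopsies were taken within 12 to 48 h of birth with a Bergstrom needle, and each library comes from a different calf. Some cows were bred to a single sire with sexed semen and others to several bulls, and the sire of each calf was not analysed here. The high class held 5 CTR, 2 TR1, 2 TR2 and 3 TR3 calves, and the low class held 3 CTR, 2 TR1, 4 TR2 and 3 TR3 calves. There were 5 females among the high calves and 4 among the low calves (Fisher's exact test, two-sided, p = 1.0). Dams were 6.50 ± 1.45 years old (SD, n = 12) in the high class and 6.08 ± 0.900 years (SD, n = 12) in the low class (permutation test with 100000 resamples, two-sided, p = 0.507).

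CD74 encodes the invariant chain, which binds new MHC class II molecules in the endoplasmic reticulum, keeps their peptide groove closed and guides them to the endosome. There the cathepsin CTSS trims the chain and the DM molecule (BOLA-DMA with BOLA-DMB) exchanges its last fragment for a peptide that CD4 T cells can read. Macrophages, dendritic cells and B cells make class II all the time, while other cells, muscle cells among them, are known to make it when interferon gamma induces the transactivator CIITA. In a piece of muscle, therefore, CD74 reads can come from resident leukocytes, from other cells under interferon, or from both. In such bulk samples, fewer cells of a type and less RNA per cell cannot be told apart.

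CD74 ranged from 132 to 269 CPM in the high class, with a median of 177 CPM. In the low class it ranged from 17.4 to 68.7 CPM, with a median of 56.8 CPM. The middle calves lay between 70.7 and 122 CPM. The borders fall in a continuous series of values: TR2 calf A2079, the last of the high class, had 131.6 CPM and CTR calf A2042, just outside it, had 122.3 CPM. TR3 calf A2074, the lowest of the middle calves, had 70.7 CPM and TR3 calf A2073, the uppermost of the low class, had 68.7 CPM. Both ends stood farther out, with 269 CPM in CTR calf A2034 and 17.4 CPM in TR2 calf A2023. CTR calves spanned 48.5 to 269 CPM and TR1 calves 41.3 to 174 CPM. TR2 calves spanned 17.4 to 179 CPM and TR3 calves 51.9 to 233 CPM, so every group reached into both classes. The group medians were 139 CPM for CTR, 99.2 CPM for TR1, 92.4 CPM for TR2 and 98.0 CPM for TR3, and their difference was not tested here. Behind these levels stood 1732 to 4020 CD74 reads in the high calves and 220 to 934 in the low calves.

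**Figure D1:**
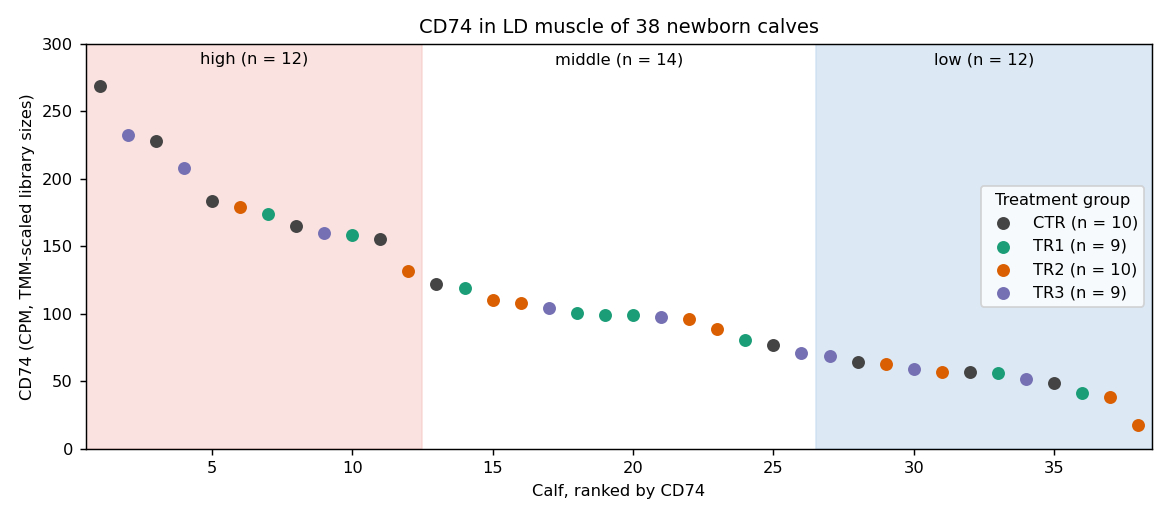
CD74 in CPM (vertical axis) of each of the 38 calves, ordered by rank (horizontal axis) and coloured by treatment group, with the high class shaded red and the low class shaded blue. The values fall without a gap at either border of the classes, from 131.6 to 122.3 CPM and from 70.7 to 68.7 CPM.

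The libraries held between 13307681 and 17226553 counts in the high class and between 13063938 and 17471666 in the low class, and the TMM factors between 0.891 and 1.06 and between 0.887 and 1.35. The 10 most abundant genes held 20.8 to 25.6% of the counts in high calves and 16.3 to 24.8% in low calves. Every library carried skeletal muscle transcripts at high levels, with CKM, the muscle creatine kinase, between 8565 and 21454 CPM over the 24 calves. Some libraries stood apart. NAMPT was above 250 CPM in 3 low calves (TR1 calf A2052 and TR2 calves A2100 and A2023) and in no high calf. MYH1, the fast IIX myosin, was under 2000 CPM in 2 high calves (CTR calves A2034 and A2035) and 3 low calves (A2052, TR1 calf A2040 and TR3 calf A2033).

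edgeR's quasi-likelihood test, with treatment group as a covariate and Benjamini-Hochberg adjustment over 12963 genes, called 179 genes (1.38% of those tested) at an adjusted p of 0.05. Of these, 120 (0.926%) were higher in the high class and 59 (0.455%) were lower. DESeq2 called 526 (4.06%) on the same calves, 308 (2.38%) higher and 218 (1.68%) lower. Without the threshold, 2290 genes (17.7%) had an unadjusted p under 0.05 and 6072 (46.8%) had a positive log2 fold change. The median log2 fold change of all genes was -0.02. With library sizes in place of TMM, that median moved to -0.15, and 97 genes were called higher and 376 lower, so that the split between higher and lower calls depends on the scaling. Levels of the 2 classes did not overlap for 16 genes that were higher in the high class (0.123%) and for 0 genes that were lower (0.0%). No calls were made at 0.05 along CD74 among the 14 middle calves, where 1480 genes had an unadjusted p under 0.05. Across all 38 calves, 2543 genes (19.6%) were called per doubling of CD74, 1084 (8.36%) upward and 1459 (11.3%) downward. That fit contains the 24 calves of the main comparison and is not independent of it.

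Single calves weighed on the number of calls. It was 81 without TR2 calf A2066, 100 without CTR calf A2096, 109 without TR1 calf A2067, 111 without TR3 calf A2102 and 359 without TR2 calf A2068. Without the 3 low calves with high NAMPT, 127 genes (0.98%) were called, 85 (0.656%) higher and 42 (0.324%) lower. Without the 5 calves that nearly lacked MYH1, 39 were called, 34 higher and 5 lower.

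Gene symbols were known for 2879 of the tested genes, namely those that the study itself had listed in these calves, so a list of such genes is not independent evidence. Among genes with a symbol, 1.84% were called higher and 0.764% lower, and the lists below are to be read against these shares. Of 65 genes tested in the MHC class II, MHC class I, type I interferon and interferon gamma lists, 35 were called higher and 0 lower. Among the other called genes with a symbol, 36 belonged to no list, and ELN, CSRP3, UGP2 and MT1A, each from a different list, were called lower.

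**Figure D2:**
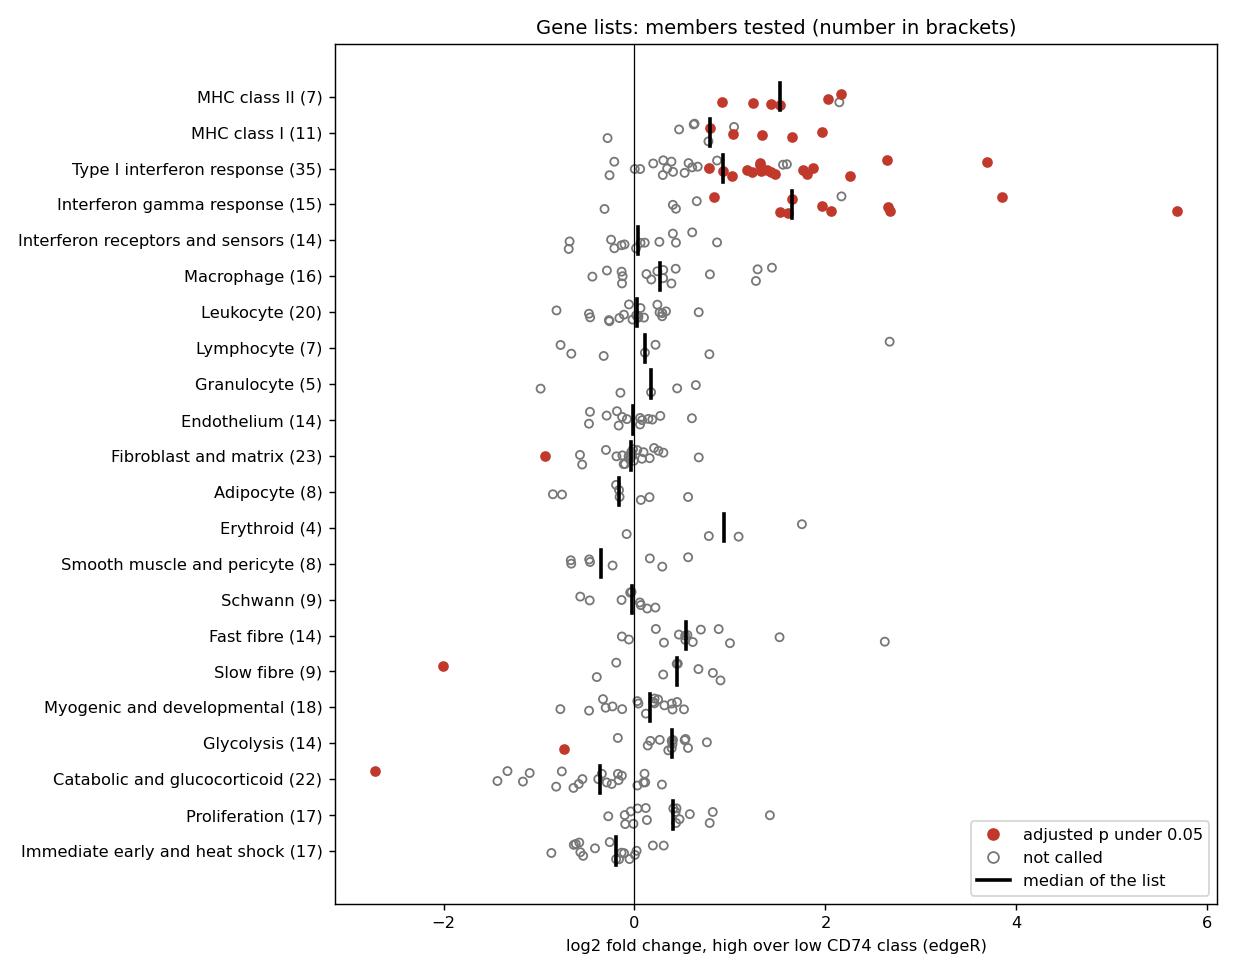
Log2 fold change of the high over the low class (horizontal axis, edgeR) for each tested member of 22 gene lists (rows, number of members in brackets), with called genes filled red and the list's median as a black bar. Called members to the right of 0 stand in the MHC class II, MHC class I, type I interferon and interferon gamma rows, with list medians of 1.52, 0.79, 0.93 and 1.64, and the few called members of other rows lie to the left.

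Of the 7 measured partners of CD74 in class II presentation, 6 were called, all higher in the high class. Their median log2 fold change was 1.52, beside -0.02 over all genes. BOLA-DRA (ENSBTAG00000010645), the alpha chain of the DR molecule, changed most clearly. It had 51.7 ± 18.96 CPM (SD, n = 12) in the high class and 10.7 ± 2.68 CPM (SD, n = 12) in the low class. The high calves ranged from 30.2 to 95.1 CPM with a median of 45.6, the low calves from 3.95 to 13.4 CPM with a median of 11.5. No high calf overlapped with a low calf, and CTR calf A2034 was the highest as it was for CD74. The fitted difference was 4.48-fold, a log2 fold change of 2.16 (standard error 0.17, edgeR adjusted p = 6.01e-08). The difference in mean log2(CPM + 0.5) between high and low calves was 2.19 for CTR, 2.01 for TR1, 2.09 for TR2 and 2.07 for TR3, so that the high calves were above the low calves in every group.

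The genes that edit the class II peptide moved with it. BOLA-DMB (ENSBTAG00000012451) ranged from 4.41 to 24.9 CPM in high calves and from 0.869 to 4.07 CPM in low calves, again without overlap (log2 fold change 2.02, standard error 0.21, edgeR adjusted p = 4.06e-06). BOLA-DMA (ENSBTAG00000015730) ranged from 7.60 to 21.6 CPM and from 2.37 to 10.3 CPM, and 8 of 12 high calves exceeded every low calf (log2 fold change 1.24, standard error 0.20, edgeR adjusted p = 0.00119). CTSS (ENSBTAG00000017135), which digests the invariant chain, ranged from 8.66 to 16.8 CPM and from 3.00 to 7.74 CPM, with a smaller but non-overlapping difference (log2 fold change 0.92, standard error 0.12, edgeR adjusted p = 0.000133). In each of the 4 treatment groups the mean of the high calves was above that of the low calves for BOLA-DMB, BOLA-DMA and CTSS.

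CIITA (ENSBTAG00000020649), the master activator of class II genes, had a median of 6.40 CPM in high calves (3.86 to 20.2) and 2.41 CPM in low calves (0.790 to 4.69). The classes overlapped, with 9 of 12 high calves above every low calf (log2 fold change 1.52, standard error 0.29, edgeR adjusted p = 0.00686). Among the middle calves it reached 13.0 CPM. BLA-DQB (ENSBTAG00000019588), a DQ beta chain, ranged from 6.35 to 42.4 CPM and from 1.90 to 9.72 CPM (log2 fold change 1.43, standard error 0.30, edgeR adjusted p = 0.0129). Without the calves that nearly lacked MYH1 its log2 fold change was 1.27 and its adjusted p 0.151. BOLA-DQA5 (ENSBTAG00000038128), a DQ alpha chain, was at 0 in 2 calves of each class and reached 12.8 CPM in the high and 2.20 CPM in the low class, and it did not pass (log2 fold change 2.15, standard error 0.70, edgeR adjusted p = 0.122). Cattle differ in the number and kind of their DQ genes. Reads that map to several near-identical copies are not counted, so both DQ values are uncertain.

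**Figure D3:**
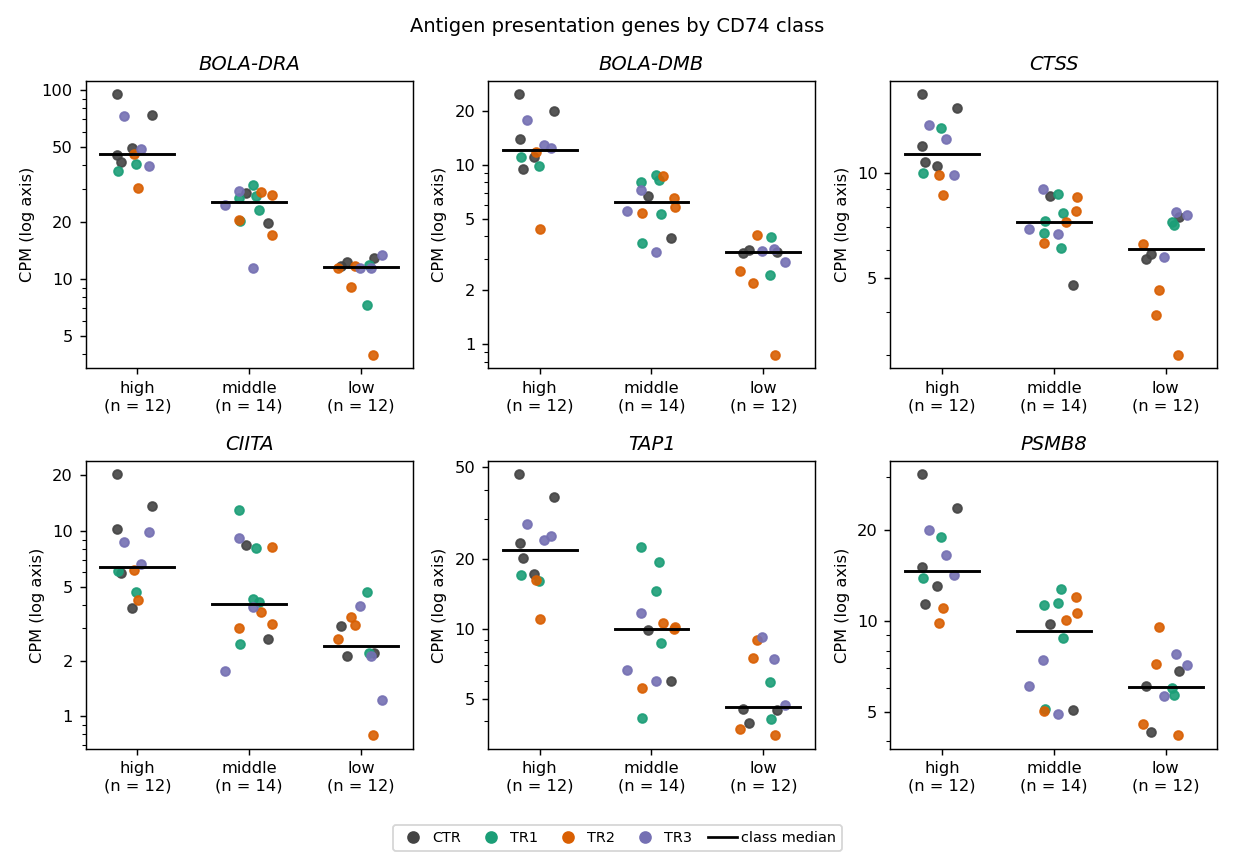
CPM on a log axis of 6 antigen presentation genes in the high (n = 12), middle (n = 14) and low (n = 12) calves, a point per calf coloured by treatment group, with the class median as a black bar. For BOLA-DRA, BOLA-DMB, CTSS, TAP1 and PSMB8 the lowest high calf lies above the uppermost low calf, whereas CIITA overlaps, and for each gene the median of the middle calves lies between the other medians.

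By class I presentation any nucleated cell shows peptides from its own cytosol to CD8 T cells. Of 11 measured genes 5 were called, all higher, and 6 were not, with a list median of 0.79 (edgeR). The called genes supply or carry the peptide. TAP1 (ENSBTAG00000008953), a subunit of the pump that brings peptides into the endoplasmic reticulum, ranged from 11.0 to 46.5 CPM in high calves (median 21.9) and from 3.48 to 9.21 CPM in low calves (median 4.61). All high calves were above all low calves (log2 fold change 1.97, standard error 0.22, edgeR adjusted p = 1.71e-05). PSMB8 (ENSBTAG00000003039) and PSMB9 (ENSBTAG00000008954) are catalytic subunits of the immunoproteasome. PSMB8 ranged from 9.84 to 30.7 CPM and from 4.19 to 9.56 CPM, without overlap (log2 fold change 1.34, standard error 0.18, edgeR adjusted p = 0.000157). PSMB9 had medians of 4.93 and 1.19 CPM, and 11 of 12 high calves exceeded every low calf (log2 fold change 1.64, standard error 0.21, edgeR adjusted p = 6.71e-05).

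B2M, the light chain of every class I molecule, ranged from 87.3 to 144 CPM in high calves and from 24.2 to 81.0 CPM in low calves, without overlap (log2 fold change 1.03, edgeR adjusted p = 0.000161). TAP2, the partner of TAP1, was at the border of the threshold (log2 fold change 0.79, edgeR adjusted p = 0.0497). The heavy chain genes BOLA, JSP.1 and BOLA-NC1 had log2 fold changes of 0.77, 1.04 and 0.62 and did not pass (edgeR adjusted p = 0.352, 0.235 and 0.0755). BOLA alone ranged from 5.94 to 394 CPM within the high class. Class I heavy chains have near-identical copies that differ between haplotypes, so these values are uncertain. CALR, a chaperone of the endoplasmic reticulum with tasks beyond antigen presentation, was the exception in sign (log2 fold change -0.28, edgeR adjusted p = 0.312).

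Several of these genes are neighbours. In the RefSeq annotation (ARS-UCD2.0, used for gene order only), TAP2, PSMB8, TAP1, PSMB9, BOLA-DMB and BOLA-DMA lie within a run of 8 protein-coding genes, and all 6 were called higher. DTX3L and PARP14, MX2 and MX1, and IFI44 and IFI44L are 3 further pairs of adjacent genes that were called higher. The strand setting of the counts is not given in the sources used here, so reads of overlapping neighbours cannot be assigned with certainty.

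Interferon gamma is the cytokine of activated T and NK cells. Of 15 measured genes that it mainly induces, 10 were called, all higher in the high class, and 5 were not, with a list median of 1.64 (edgeR). TAP1, PSMB9 and CIITA above belong to this list too. IDO1 (ENSBTAG00000020602), which degrades tryptophan, differed most. It ranged from 0.608 to 95.8 CPM in high calves, with a median of 8.45 CPM, and from 0 to 0.550 CPM in low calves, 4 of which had no read of it. The lowest high calf, A2079 at 0.608 CPM, was barely above the uppermost low calf, whereas A2034 had 95.8 CPM. The log2 fold change was 5.69 (standard error 0.71, edgeR adjusted p = 5.97e-05), a value that depends on how few reads the low calves had.

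GBP2 and GBP5, guanylate-binding proteins of cell-autonomous defence, had medians of 0.882 and 0.943 CPM in high calves and of 0.0611 and 0.131 CPM in low calves (log2 fold changes 3.84 and 2.68, edgeR adjusted p = 0.00150 and 0.00752). CD274, the checkpoint ligand PD-L1, had medians of 0.727 and 0.0966 CPM (log2 fold change 2.66, edgeR adjusted p = 0.00390). All 3 genes were expressed at low levels even in the high class, and 10 or 11 of 12 high calves exceeded every low calf. BATF2 (ENSBTAG00000011467), a transcription factor, ranged from 1.97 to 10.5 CPM and from 0.215 to 2.60 CPM (log2 fold change 2.06, standard error 0.36, edgeR adjusted p = 0.00362). IRF1, which relays the signal to class I and II genes, had medians of 20.5 and 5.80 CPM but overlapped more widely, with 7 of 12 high calves above every low calf (log2 fold change 1.61, edgeR adjusted p = 0.0198). WARS1, a tRNA ligase induced by interferon gamma, had medians of 111 and 56.3 CPM (log2 fold change 0.83, edgeR adjusted p = 0.0323).

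The 5 members that were not called include the chemokine CXCL10 (log2 fold change 2.17, edgeR adjusted p = 0.0700) and a part of the pathway that is present at all times. JAK2, a kinase of the interferon gamma receptor, had medians of 17.2 and 12.2 CPM (log2 fold change 0.40, edgeR adjusted p = 0.127). IFI47 and TRAFD1 had log2 fold changes of 0.65 and -0.31 (edgeR adjusted p = 0.671 and 0.279).

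Of 35 measured genes induced by type I interferons, the antiviral cytokines, 17 were called, all higher, with a list median of 0.93 (edgeR). MX2 (ENSBTAG00000008471), a dynamin-like antiviral protein, ranged from 1.02 to 10.2 CPM in high calves and from 0 to 0.863 CPM in low calves, without overlap (log2 fold change 3.69, standard error 0.46, edgeR adjusted p = 5.97e-05). IFI27 (ENSBTAG00000003152) had medians of 12.5 and 1.57 CPM, and 11 of 12 high calves exceeded every low calf (log2 fold change 2.65, standard error 0.28, edgeR adjusted p = 4.06e-06). UBA7 (ENSBTAG00000012335), the enzyme that activates the ubiquitin-like ISG15, ranged from 10.7 to 37.0 CPM and from 3.24 to 8.22 CPM, without overlap (log2 fold change 1.86, standard error 0.22, edgeR adjusted p = 2.70e-05). ISG15 itself had a log2 fold change of 1.81 (edgeR adjusted p = 0.00931).

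The other called members were IFI44, RTP4, OAS1Y, IFIT3, HERC6, IFI44L, EPSTI1, PARP14, RSAD2, MX1, SAMD9, DTX3L and ZNFX1, with log2 fold changes between 0.78 and 2.26. PARP14 was the only other gene of the list whose classes did not overlap, with 5.09 to 15.9 CPM in high calves and 1.98 to 4.54 CPM in low calves. The OAS1 genes have close paralogues, so OAS1Y and the uncalled OAS1X (log2 fold change 1.56, edgeR adjusted p = 0.0710) are uncertain. USP18, IFI35, TRIM56 and TREX1, all interferon-induced elsewhere, had log2 fold changes of 0.30, 0.06, 0.20 and -0.26 and adjusted p values above 0.05 (edgeR, 0.626, 0.882, 0.713 and 0.539). Without the calves that nearly lacked MYH1, 6 of the 35 genes were called, and 6 of the 15 interferon gamma genes, with 5 fewer calves in the fit. The list medians were then 0.83 and 1.61, beside 0.93 and 1.64 with all calves.

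Of 14 measured interferon receptors, signalling kinases, transcription factors and nucleic acid sensors, edgeR called 0, DESeq2 called 2, 5 had an unadjusted p under 0.05, and the median log2 fold change was 0.04. The smallest p belonged to DHX58 (ENSBTAG00000046580), a cytosolic RNA sensor that interferon also induces, with medians of 1.32 and 0.782 CPM (log2 fold change 0.86, standard error 0.23, edgeR adjusted p = 0.0553). Its adjusted p was between 0.0406 and 0.0497 without calf A2035, A2041, A2068 or A2090. Over the list, edgeR called 1 gene without A2035, A2041, A2067, A2068 or A2073 and 2 without A2090. It called 3 with 14 against 14 calves, 2 with 19 against 19 and 5 across all 38, 4 of them upward. IFNAR1, a chain of the type I interferon receptor, had medians of 7.80 and 7.89 CPM (log2 fold change -0.14, edgeR adjusted p = 0.626).

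**Figure D4:**
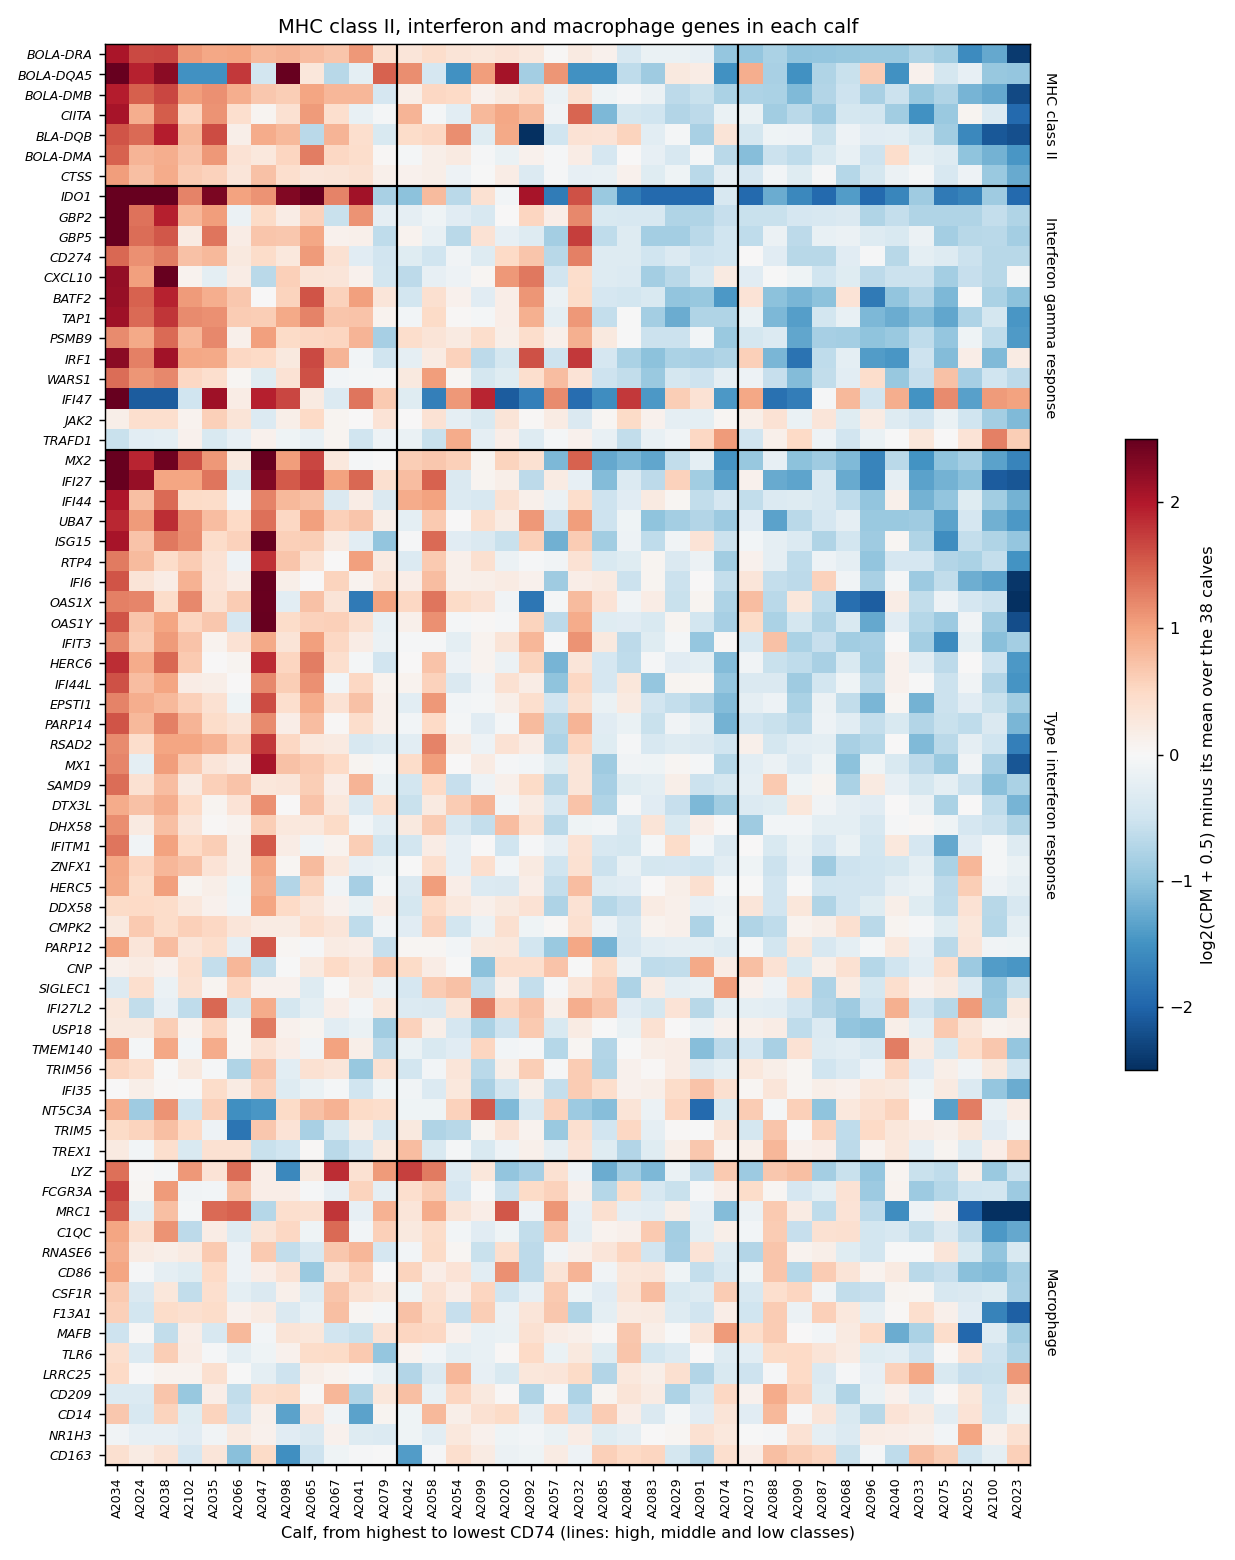
Log2(CPM + 0.5) of MHC class II, interferon gamma, type I interferon and macrophage genes (rows, grouped by list), minus each gene's mean over the 38 calves, in calves ordered from highest to lowest CD74 (columns), with lines between the high, middle and low classes. The upper 3 blocks are mostly red at the left and blue at the right, with single bright columns for A2034, A2038 and A2047 and among the middle calves for A2058, A2092 and A2032, while the macrophage block at the bottom is mixed.

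The high calves were not alike. Counted over the 15 interferon gamma genes, A2034, A2024, A2038 and A2065 each had 13 genes above every low calf, while A2079 had 4. Over the 35 type I genes the number ran from 9 in A2079 to 26 in TR1 calf A2047. The calf that led the type I count had a low interferon gamma count of 7. A2047 had 27.4 CPM of MX1, 13.8 CPM of ISG15 and 41.6 CPM of IFI6, beside 3.73 CPM of IDO1 and 0.68 CPM of GBP2. A2034 had 15.2, 9.91 and 8.84 CPM of the same 3 type I genes, beside 95.8 CPM of IDO1 and 6.43 CPM of GBP2. These calves were picked after their values were seen.

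Some middle calves had interferon levels like those of the high class. TR1 calves A2092 and A2032, with 100.7 and 98.9 CPM of CD74, each had 10 of the 15 interferon gamma genes above every low calf, more than 5 of the 12 high calves. Their IRF1 was 33.6 and 37.8 CPM, while the high calf A2079 had 7.52 CPM. TR1 calf A2058 had 20 of 35 type I genes above every low calf, as did A2032. Along CD74 within the middle calves alone, the log2 fold change per doubling was 1.43 for BOLA-DRA, 1.71 for BOLA-DMB, 1.72 for TAP1 and 4.18 for IDO1, all positive, and none passed (edgeR adjusted p = 0.226, 0.226, 0.371 and 0.544).

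Markers of macrophages, which carry CD74 in resting muscle, did not pass in any of 16 genes with edgeR, while DESeq2 called 1, and 5 had an unadjusted p under 0.05. Their median log2 fold change was 0.27. Their summed level was 82.1 to 185 CPM in high calves (median 117) and 58.6 to 155 CPM in low calves (median 104), with 9 of 12 high calves above the low median. MRC1, the mannose receptor of tissue-resident macrophages, made up much of that sum, with medians of 31.5 and 15.8 CPM (log2 fold change 1.27, edgeR adjusted p = 0.117). It was lowest, at 4.85, 0.978 and 2.84 CPM, in A2052, A2100 and A2023, the low calves with high NAMPT, and without these calves the median log2 fold change of the macrophage list was 0.07. Without the calves that nearly lacked MYH1 it was 0.12.

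Other macrophage genes pointed in different directions. LYZ (ENSBTAG00000026779), lysozyme, had medians of 1.47 and 0.549 CPM (log2 fold change 1.44, standard error 0.43, edgeR adjusted p = 0.0902) and passed when CTR calf A2088 or A2098 was left out (adjusted p between 0.0309 and 0.0378). C1QC, a complement subunit made by macrophages, had a log2 fold change of 0.79 (edgeR adjusted p = 0.200) and CSF1R, the receptor of their growth factor, 0.30 (edgeR adjusted p = 0.591). CD163, the haemoglobin scavenger receptor, had -0.44 (edgeR adjusted p = 0.482) and CD14 -0.13 (edgeR adjusted p = 0.899). None of the 16 markers was at 0 in all calves of a class, and the part of macrophage number in the CD74 difference was not tested.

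Pan-leukocyte genes were not called. Of 20 genes edgeR and DESeq2 called 0, 0 had an unadjusted p under 0.05, and the median log2 fold change was 0.03. Their summed level was 39.2 to 59.9 CPM in high calves (median 44.0) and 30.8 to 59.4 CPM in low calves (median 43.8). PTPRC, the CD45 antigen of all leukocytes, had medians of 1.28 and 0.816 CPM (log2 fold change 0.33, edgeR adjusted p = 0.683). RASSF4 (ENSBTAG00000002669) had the smallest p of the list (log2 fold change 0.67, standard error 0.35, edgeR adjusted p = 0.311).

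Of 7 T, NK and B cell genes edgeR and DESeq2 called 0, and 1 had an unadjusted p under 0.05. That gene was KLRF2 (ENSBTAG00000046980), an NK cell receptor, which was at 0 in 7 high and 9 low calves and reached 3.19 CPM in the high class (log2 fold change 2.67, standard error 0.95, edgeR adjusted p = 0.160). CD8A, of cytotoxic T cells, had medians of 1.09 and 0.562 CPM (log2 fold change 0.11, edgeR adjusted p = 0.928) and CD79B, of B cells, 0.677 and 0.510 CPM (log2 fold change 0.22, edgeR adjusted p = 0.733). Of 5 granulocyte and mast cell genes edgeR and DESeq2 called 0, with 2 at an unadjusted p under 0.05, and the mast cell receptor KIT (ENSBTAG00000002699) had the smallest p (log2 fold change 0.64, standard error 0.22, edgeR adjusted p = 0.138).

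Of 4 erythroid genes edgeR called 0, with 2 at an unadjusted p under 0.05, and DESeq2 called 1. HBB (ENSBTAG00000037644), the adult beta globin, ranged from 24.4 to 370 CPM in high calves and from 3.79 to 88.5 CPM in low calves (log2 fold change 1.75, standard error 0.54, edgeR adjusted p = 0.0995). The 5 high calves above every low calf, A2066, A2035, A2102, A2041 and A2034, include the calf highest in IDO1, but A2038 and A2024, next in IDO1, had only 24.4 and 25.6 CPM. High values were also found among the middle calves, with 373 CPM in A2042, above every high calf, 319 CPM in A2032 and 205 CPM in A2058. Globin genes have close copies, and reads that map to several of them are not counted, so the HBB values are uncertain. The part of blood in the biopsies was not tested.

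Among the listed markers of the structural cells of muscle, edgeR called a single gene. Of 14 endothelial genes edgeR called 0, with 1 at an unadjusted p under 0.05, and DESeq2 called 1, with a median log2 fold change of -0.01. EPAS1 (ENSBTAG00000003711), a hypoxia-responsive transcription factor of endothelium and muscle, had medians of 123 and 77.3 CPM (log2 fold change 0.60, standard error 0.17, edgeR adjusted p = 0.0702), and it passed without A2040 or A2068 (adjusted p between 0.0186 and 0.0448). Of 23 fibroblast and matrix genes 1 was called, and 2 were called without calf A2052. ELN (ENSBTAG00000019517), elastin, was lower in the high class, with medians of 49.6 and 89.6 CPM (log2 fold change -0.94, standard error 0.22, edgeR adjusted p = 0.0325). The fibrillar collagen genes COL1A1, COL1A2 and COL3A1 had log2 fold changes of -0.03, -0.03 and -0.01.

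Of 8 smooth muscle and pericyte genes edgeR and DESeq2 called 0, with 5 at an unadjusted p under 0.05, and TAGLN (ENSBTAG00000007196), transgelin, had the smallest p (log2 fold change -0.47, standard error 0.19, edgeR adjusted p = 0.186). Of 9 Schwann cell genes they called 0, with 0 at an unadjusted p under 0.05, and the median log2 fold change was -0.03. Of 8 adipocyte genes they called 0, with 1 at an unadjusted p under 0.05, namely GPD1 (ENSBTAG00000016296), an enzyme that muscle also expresses (log2 fold change 0.56, standard error 0.25, edgeR adjusted p = 0.246). The log2 fold changes of 5 of the 8 were negative (median -0.16), with -0.76 for FABP4, the fatty acid carrier of fat cells, and -0.85 for ADIPOQ, adiponectin (edgeR adjusted p = 0.531 and 0.605). ADIPOQ was at 0 in 5 low calves and 1 high calf.

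Of 14 genes of fast muscle fibres edgeR called 0, DESeq2 called 2, 8 had an unadjusted p under 0.05, and the median log2 fold change was 0.54. That median was 0.33 without the calves that nearly lacked MYH1, and the log2 fold change of MYL1 below was then 0.35. MYL1 (ENSBTAG00000009707), the fast alkali light chain, ranged from 11736 to 21622 CPM in high calves (median 16394) and from 3484 to 18834 CPM in low calves (median 11810). The lowest low calves lay below every high calf, and 1 high calf lay above every low calf (log2 fold change 0.53, standard error 0.18, edgeR adjusted p = 0.125). MYH1 (ENSBTAG00000018204) ranged from 939 to 31485 CPM in high and from 615 to 25229 CPM in low calves, with the calves that nearly lacked it in both classes (log2 fold change 1.00, standard error 0.55, edgeR adjusted p = 0.345). MYH2, the fast IIA myosin, had medians of 16136 and 18162 CPM (log2 fold change -0.06, edgeR adjusted p = 0.917).

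Of 9 slow fibre genes, 6 had positive log2 fold changes (median 0.44, edgeR), 4 had an unadjusted p under 0.05, and the 1 gene that was called went the other way. CSRP3 (ENSBTAG00000011869), muscle LIM protein, a sensor of stretch at the Z-disc, ranged from 179 to 948 CPM in high calves (median 447) and from 458 to 9195 CPM in low calves (median 1159). All 12 high calves lay below the low median (log2 fold change -2.01, standard error 0.46, edgeR adjusted p = 0.0292). The 2 uppermost values, 9195 and 8315 CPM, belonged to TR2 calves A2023 and A2100. Without the 3 low calves with high NAMPT the log2 fold change was -1.68 and the adjusted p 0.000600. Without the calves that nearly lacked MYH1 the log2 fold change was -2.02, as large as with them, and the adjusted p 0.123. Without A2033, A2065, A2066, A2079 or A2102 it was between 0.0525 and 0.0714. Without A2068, 2 genes of the list were called. Across the middle calves CSRP3 did not follow CD74 (log2 fold change 0.36 per doubling, edgeR adjusted p = 0.898). MB, myoglobin, had medians of 5600 and 3429 CPM (log2 fold change 0.67, edgeR adjusted p = 0.108).

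ANKRD2 (ENSBTAG00000012720), a stretch-responsive ankyrin repeat protein that belongs to none of the lists, was among the genes that fell furthest. It ranged from 48.1 to 282 CPM in high and from 92.5 to 3678 CPM in low calves (log2 fold change -2.36, standard error 0.54, edgeR adjusted p = 0.0277). Again A2023 and A2100 had the uppermost values. Without the low calves with high NAMPT the log2 fold change was -2.01 and the adjusted p 0.000413. Without the calves that nearly lacked MYH1 they were -2.24 and 0.193. The adjusted p without A2033, A2040, A2066, A2079 or A2102 was between 0.0513 and 0.0827.

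Of 14 glycolytic and glycogen genes 1 was called. UGP2 (ENSBTAG00000000111), which makes the UDP-glucose for glycogen synthesis, ranged from 148 to 213 CPM in high calves and from 179 to 574 CPM in low calves, and all 12 high calves lay below the low median of 303 CPM (log2 fold change -0.74, standard error 0.15, edgeR adjusted p = 0.00849). This call held without any single calf (adjusted p up to 0.0352), though not without the calves that nearly lacked MYH1 (log2 fold change -0.56, edgeR adjusted p = 0.178). The other 13 genes of the list, most of which serve glycogen and glucose breakdown, were not called, and 12 of the 14 had positive log2 fold changes (median 0.39, and 0.14 without the calves that nearly lacked MYH1).

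**Figure D5:**
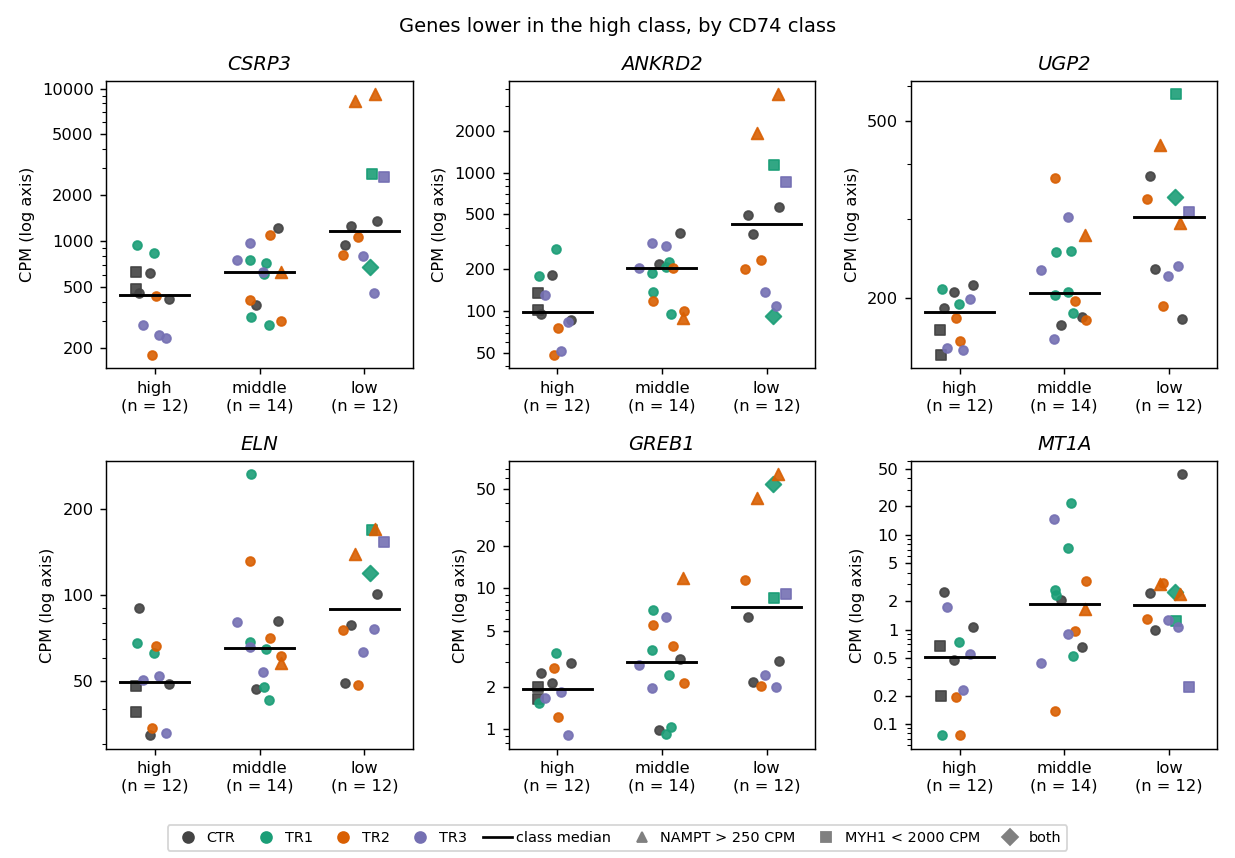
CPM on a log axis of 6 genes called lower in the high class, in the high (n = 12), middle (n = 14) and low (n = 12) calves, a point per calf coloured by treatment group, with the class median as a black bar and calves with NAMPT above 250 CPM or MYH1 under 2000 CPM marked by shape. The classes overlap for every gene shown, and the uppermost low calves of CSRP3, ANKRD2 and GREB1 are calves with NAMPT above 250 CPM.

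Among 22 genes of fasting, atrophy and glucocorticoid action 1 was called, 6 had an unadjusted p under 0.05 and 17 had negative log2 fold changes (median -0.36, edgeR). On leaving out single calves the number called was 3 without A2033, 2 without A2040, A2068 or A2087, and 0 without A2034, A2035, A2041, A2052, A2066, A2067, A2079, A2088, A2100 or A2102. MT1A (ENSBTAG00000054808), a metallothionein, had medians of 0.515 and 1.82 CPM (log2 fold change -2.72, standard error 0.66, edgeR adjusted p = 0.0382). Its size rested on CTR calf A2088, which had 43.7 CPM, and without that calf the log2 fold change was -1.37. The call was lost on leaving out any of 12 calves (A2034, A2035, A2038, A2041, A2052, A2065, A2066, A2067, A2079, A2088, A2100 or A2102, adjusted p between 0.0522 and 0.181). It was also lost without the low calves with high NAMPT (log2 fold change -2.66, edgeR adjusted p = 0.0804) and without the calves that nearly lacked MYH1 (-2.72, edgeR adjusted p = 0.163). FKBP5, a target of the glucocorticoid receptor, had medians of 104 and 203 CPM (log2 fold change -1.17, edgeR adjusted p = 0.0532). NAMPT (ENSBTAG00000015509), which makes NAD from nicotinamide, had medians of 83.2 and 85.0 CPM, and its log2 fold change of -0.64 (standard error 0.40, edgeR adjusted p = 0.419) came with 3 low calves between 289 and 628 CPM. Without them it was 0.11. The median of the whole list was then -0.04.

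ELN, GREB1 and OXT were likewise sensitive to single calves. The adjusted p of ELN rose to between 0.0512 and 0.0931 without A2033, A2047, A2065, A2066, A2067, A2088 or A2102, and it was 0.0738 without the low calves with high NAMPT (log2 fold change -0.79) and 0.303 without the calves that nearly lacked MYH1 (-0.70). GREB1 (ENSBTAG00000015402), known as a hormone-responsive gene, ranged from 0.907 to 3.46 CPM in high and from 1.99 to 63.8 CPM in low calves (log2 fold change -2.26, standard error 0.56, edgeR adjusted p = 0.0399). It had 54.6, 43.5 and 63.8 CPM in A2052, A2100 and A2023 and at most 11.5 CPM in the other low calves. Without these 3 its log2 fold change was -1.36 and its adjusted p 0.0459, and without the calves that nearly lacked MYH1 they were -1.60 and 0.349. Leaving out any of 14 single calves (A2024, A2033, A2034, A2035, A2041, A2047, A2052, A2065, A2066, A2067, A2079, A2096, A2100 or A2102) gave an adjusted p of 0.0502 to 0.127. OXT (ENSBTAG00000008026), the oxytocin gene, ranged from 0.386 to 17.3 CPM and from 4.12 to 130 CPM (log2 fold change -2.43, standard error 0.59, edgeR adjusted p = 0.0376). Its adjusted p was 0.0609 without the low calves with high NAMPT (log2 fold change -1.92), 0.189 without the calves that nearly lacked MYH1 (-2.49), and 0.0502 to 0.101 without any of A2024, A2034, A2035, A2041, A2065, A2066, A2067, A2073, A2079, A2088, A2096 or A2100.

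In the lists for muscle development, the cell cycle and the handling of fresh tissue, no member was called. Of 18 myogenic and developmental genes edgeR and DESeq2 called 0, with 2 at an unadjusted p under 0.05 and a median log2 fold change of 0.16. Their summed level went the other way, from 3630 to 7456 CPM in high calves (median 5859) and from 4370 to 9940 CPM in low calves (median 7195), with 1 of 12 high calves above the low median. MUSK (ENSBTAG00000002744), the receptor kinase of the neuromuscular junction, had the smallest p (log2 fold change -0.78, standard error 0.33, edgeR adjusted p = 0.223). Of 17 proliferation genes they called 0, with 2 at an unadjusted p under 0.05, and MKI67 (ENSBTAG00000002444), a marker of dividing cells, had medians of 0.615 and 0.131 CPM (log2 fold change 1.42, standard error 0.62, edgeR adjusted p = 0.235). Of 17 immediate early and heat shock genes they called 0, with 2 at an unadjusted p under 0.05, and 13 had negative log2 fold changes (median -0.19, edgeR). The summed level of this list had medians of 2510 CPM in high and 3009 CPM in low calves, with 1 of 12 high calves above the low median. HSP90AB1 (ENSBTAG00000000778) had medians of 457 and 620 CPM (log2 fold change -0.57, standard error 0.19, edgeR adjusted p = 0.136). Its log2 fold change was -0.26 without the low calves with high NAMPT and -0.37 without the calves that nearly lacked MYH1.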

How the data were processed

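Poly-A RNA of each LD biopsy was made into a stranded library and sequenced, and the authors aligned the reads with STAR 2.7.3a to the bovine assembly ARS-UCD1.2 (versions from the submitters' processing notes). The deposited values are raw counts per gene from STAR's gene counting, for 27607 genes in 38 calves. The strand column used is not given in the sources used here, and reads that map to several genes are not counted by this method, which lowers genes with near-identical copies. Every column was used. Intervals and tests cover the spread between calves, each of which is a separate animal.

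Counts were scaled by TMM over all 38 calves and 12964 genes passed edgeR's filter on low counts by sex and treatment. CD74 was then left out, and the 12 highest and 12 lowest calves by CD74 were fitted with class and treatment group in edgeR 4.0.16 (quasi-likelihood F-test, R 4.3.3). The p values were adjusted over 12963 genes by the Benjamini-Hochberg method with a threshold of 0.05. Standard errors were the log2 fold change divided by the square root of F. CPM were computed from the counts with the scaled library sizes, and differences within treatment groups on log2(CPM + 0.5). On simulated counts with 200 changed genes the fit recovered 34 at a log2 change of 0.5, with 2 false calls, and 173 at a log2 change of 1, with 8 false calls. The changed genes were drawn from those with a mean above 1 CPM. Each gene was simulated independently, without treatment effects or calves that stood apart, so these numbers may not carry over to the real counts.

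The members and the gene lists were chosen with earlier results of these data known. Symbols came from the study's supplementary tables, which pair 2880 gene IDs with names, so members of a list without a name there were not looked up. Other genes were tested by ID. The genes given in full were all measured MHC class II genes, up to 3 called genes with a mean of at least 1 CPM from each other list (or the gene with the smallest p where none was called), the 5 largest differences in each direction, and MYH1 and NAMPT. The 5 largest differences were sought among called genes with a symbol and a mean of at least 1 CPM. Further list members are given beside them as examples, and a few genes that the rule names or that belong to a list are not reported here. Alternatives were DESeq2 1.42.0, library sizes, no filter, other covariates, other class sizes, CD74 as a continuous term in all 38 or in the 14 middle calves, a robust fit and each calf left out. Gene order came from RefSeq (ARS-UCD2.0). No columns of fold changes or p values made by the authors were used.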

Additional observations from a re-analysis of the deposited data

How the results depend on the processing

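No paired analysis was possible because the labels carry no replicate numbers and each calf falls in 1 class only. The number of genes called, 179 (120 higher, 59 lower), became 526 with DESeq2 (308 and 218, among them all 179), 473 with library sizes (97 and 376), 409 without the treatment covariate (207 and 202), 83 with 10 against 10 calves (71 and 12), 808 with 14 against 14 (401 and 407), 654 with 19 against 19 (322 and 332), 2543 per doubling of CD74 in all 38 (1084 and 1459) and 0 in the 14 middle calves (0 higher, 0 lower), where fewer calves with a narrower range were fitted. It was 39 (34 and 5) without the calves that nearly lacked MYH1, an alternative chosen after seeing the data, as was leaving out the low calves with high NAMPT (127). No filter, dam age with sex, and the robust fit left the count within 1.5 times. Of the named genes, however, 3 lost their call and 1 gained one with dam age and sex. The robust fit ended the call of 3 named genes and 10 against 10 calves that of 6.

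Leaving out single calves gave 81 to 359 calls. The higher calls ranged from 68 to 227, with 68 without A2066, 72 without A2096 and 227 without A2068. The lower calls ranged from 13 to 132, with 13 without A2066, 24 without A2079, 26 without A2102, 27 without A2067, 28 without A2096, 35 without A2033 or A2038, 36 without A2065 or A2075, 97 without A2040 and 132 without A2068. Over the named genes and single calves, 849 values kept their direction and side of the threshold, 55 lost the call, 8 gained one and 0 reversed.

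Of the 22 lists, the number called moved in 16 across all 38 calves and in 10 with 14 against 14, and only some are given here. By list, the middle calves gave 0 calls in MHC class II, MHC class I, type I and interferon gamma, and all 38 calves gave 10 in class I. In interferon gamma all 38 calves gave 14 calls, 13 higher and 1 lower. Without the calves that nearly lacked MYH1 there were 6 in type I and 6 in interferon gamma. Calls among interferon receptors and sensors, 0 in the main comparison, were 2 with DESeq2, 1 without the treatment covariate, 1 with dam age and sex, 3 with 14 against 14, 2 with 19 against 19, 5 in all 38 calves, and 0 to 2 on leaving out single calves. Macrophage calls, 0 in the main comparison, were 1 with DESeq2, 3 with 14 against 14, 2 with 19 against 19, 5 in all 38 calves, and 0 to 1 on leaving out single calves (1 without A2088 or A2098). With 14 against 14, 2 of these calls were higher and 1 lower, and in all 38 calves 4 were higher and 1 lower. Pan-leukocyte calls were 1 in all 38 calves. Fast fibre calls were 2 with DESeq2, 1 with dam age and sex, 3 with 14 against 14, 3 with 19 against 19, 5 in all 38 calves, and 0 to 1 on leaving out single calves (1 without A2075). Among the middle calves the log2 fold change per doubling of CD74 turned to -1.45 for KLRF2, 0.36 for CSRP3, 1.20 for MUSK and 3.99 for MT1A, and without the high-NAMPT calves that of NAMPT turned to 0.11. Without the calves that nearly lacked MYH1 the log2 fold changes of GPD1 and TAGLN, neither called, were 0.30 and -0.23, and the medians of the slow fibre and catabolic lists 0.25 and -0.13. The causes were not tested. Genes such as IDO1, GBP2 and MX2 rest on few reads in low calves, so their fold changes are imprecise.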

Other observations

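The 36 called genes with a symbol that belong to no list were divided evenly, 18 higher and 18 lower. They were looked at after their values were known. Among the higher genes was MDK, the growth factor midkine, whose classes did not overlap (log2 fold change 1.41, edgeR adjusted p = 0.000257). APOL3, PLAC8B and MAPK4 were higher by log2 fold changes of 1.61, 2.03 and 1.59. Among the lower genes were NRAP (-0.92, edgeR adjusted p = 0.00741) and KLHL40 (-1.03), which serve the assembly and upkeep of thin filaments in striated muscle, the chemokine CXCL14 (-1.44), the collagen prolyl hydroxylase P4HA3 (-1.97) and the cold-inducible RNA-binding protein RBM3 (-0.82).

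Of the 179 called genes 104 had no symbol in the sources used here, 67 of them higher and 37 lower. ENSBTAG00000038625 and ENSBTAG00000050846 were higher by log2 fold changes of 4.15 and 3.34 (edgeR adjusted p = 0.000222 and 0.000143). ENSBTAG00000055045, with means of 296 CPM in the high and 842 CPM in the low class, was lower (-1.53, edgeR adjusted p = 0.00931), as was ENSBTAG00000019315 (-1.08, edgeR adjusted p = 0.0276).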
